A study of Macaca fascicularis with 23 samples.

Results

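The genes described here are 33 genes of apoptosis, followed in liver from ciprofibrate-dosed cynomolgus monkeys (Macaca fascicularis). They were chosen by name: every probe set whose array annotation names one of the 33 was taken, which gave 61 of the 12625 probe sets on the array. A probe set is a group of short probes that together report 1 transcript. Of the 33 genes, 31 had a probe set, RIPK1 and BIRC3 had 0, and the single probe set for PDCD4 also names a microRNA gene, which leaves 30 genes with a probe set of their own among the 8226 that the array names so. Ciprofibrate belongs to the fibrates, lipid-lowering drugs that act through the nuclear receptor PPAR-alpha. The design sets the drug against its vehicle across doses and dosing times, with 1 liver and 1 array per animal and 23 animals. At 4 days, 2 animals had received vehicle alone and 2 had received ciprofibrate at 400 mg/kg/day. At 15 days, 3 animals had received vehicle, and 4 animals each had received 3, 30 or 150 mg/kg/day, or the same 400 mg/kg/day. The labels call these biological replicates and name a different animal for each; they give no age, sex or strain.

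Apoptosis is the ordered death of a cell by its own proteases, the caspases. In the extrinsic route a ligand such as TNFSF10 (TRAIL) binds a death receptor, adaptors such as FADD gather the initiator caspases, and these are activated. In the intrinsic route pore-forming members of the BCL2 family let cytochrome c (CYCS) out of the mitochondrion, and APAF1 then assembles a platform that activates CASP9. In hepatocytes the extrinsic signal usually needs amplification through mitochondria, by way of BID. Most control of these proteins is by cleavage and binding, which RNA levels do not record.

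Intensities are on a linear scale that was already equal across arrays, and array medians lay between 55 and 71.6. Of 19 probe sets for 13 hepatocyte markers, 17 were above background, among them ALB, whose brightest probe set read 13609 to 31482, so the tissue label and its markers match. The other 2 were probe sets of CYP3A4, which had another, bright probe set. The array was designed on human transcripts, so values are compared within a probe set across animals and not between probe sets. In whole liver, fewer cells of a type and less RNA per cell cannot be told apart. The ratio of ACTB signal at the 5' end of the transcript to that at the 3' end is a measure of RNA quality. At 4 days this ratio was 0.748 to 0.988 in vehicle and 1.02 to 1.21 at 400 mg/kg/day, with no overlap. At 15 days it was 0.540 to 0.606 in vehicle and 0.503 to 0.979 over the 4 doses. By GAPDH the 4-day groups overlapped, at 0.947 to 0.993 in vehicle and 0.974 to 1.17 at 400 mg/kg/day. The part of RNA quality in differences from vehicle was not tested. Each treated group was compared only with vehicle of its own day, and the 4 doses at 15 days share the same 3 vehicle animals.

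Above background here means a mean log2(intensity + 16) over the 23 arrays at or above the 40th percentile of all probe sets, which is 5.80 or an intensity of 39.7. By this measure 35 of the 61 probe sets were above background (57.4%, where the limit by its definition admits 7535 of 12558), and they covered 23 genes. For 15 genes every probe set passed. The 4 anti-apoptotic BCL2 family genes passed on all 10 of their probe sets, and the 4 initiator caspases on 9 of 13. The genes without a probe set above background were BAK1, a pore-forming protein; BIK, a pro-apoptotic BCL2 relative; CASP1, the caspase of the inflammasome; CASP6, an executioner caspase; TNFRSF10B, a receptor for TNFSF10; XIAP, an inhibitor of caspases; DFFB, the nuclease that cuts DNA between nucleosomes; and PDCD4, an inhibitor of translation. Just inside the limit lay FAS (37643_at, mean 5.83) and CASP8 (33775_s_at, 5.88), and just outside it BAX (2065_s_at, 5.78), XIAP (1646_at, 5.77) and TNFRSF10B (34892_at, 5.73). Bacterial control probe sets, 15 in all, had a median of 12 and a 95th percentile of 56.1, and 31 of the 61 probe sets for 22 genes lay above that stricter limit. A probe set that misses the limit says that its signal was low, not that the gene was silent, since human probes may bind the monkey transcript poorly.

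**Figure D1:**
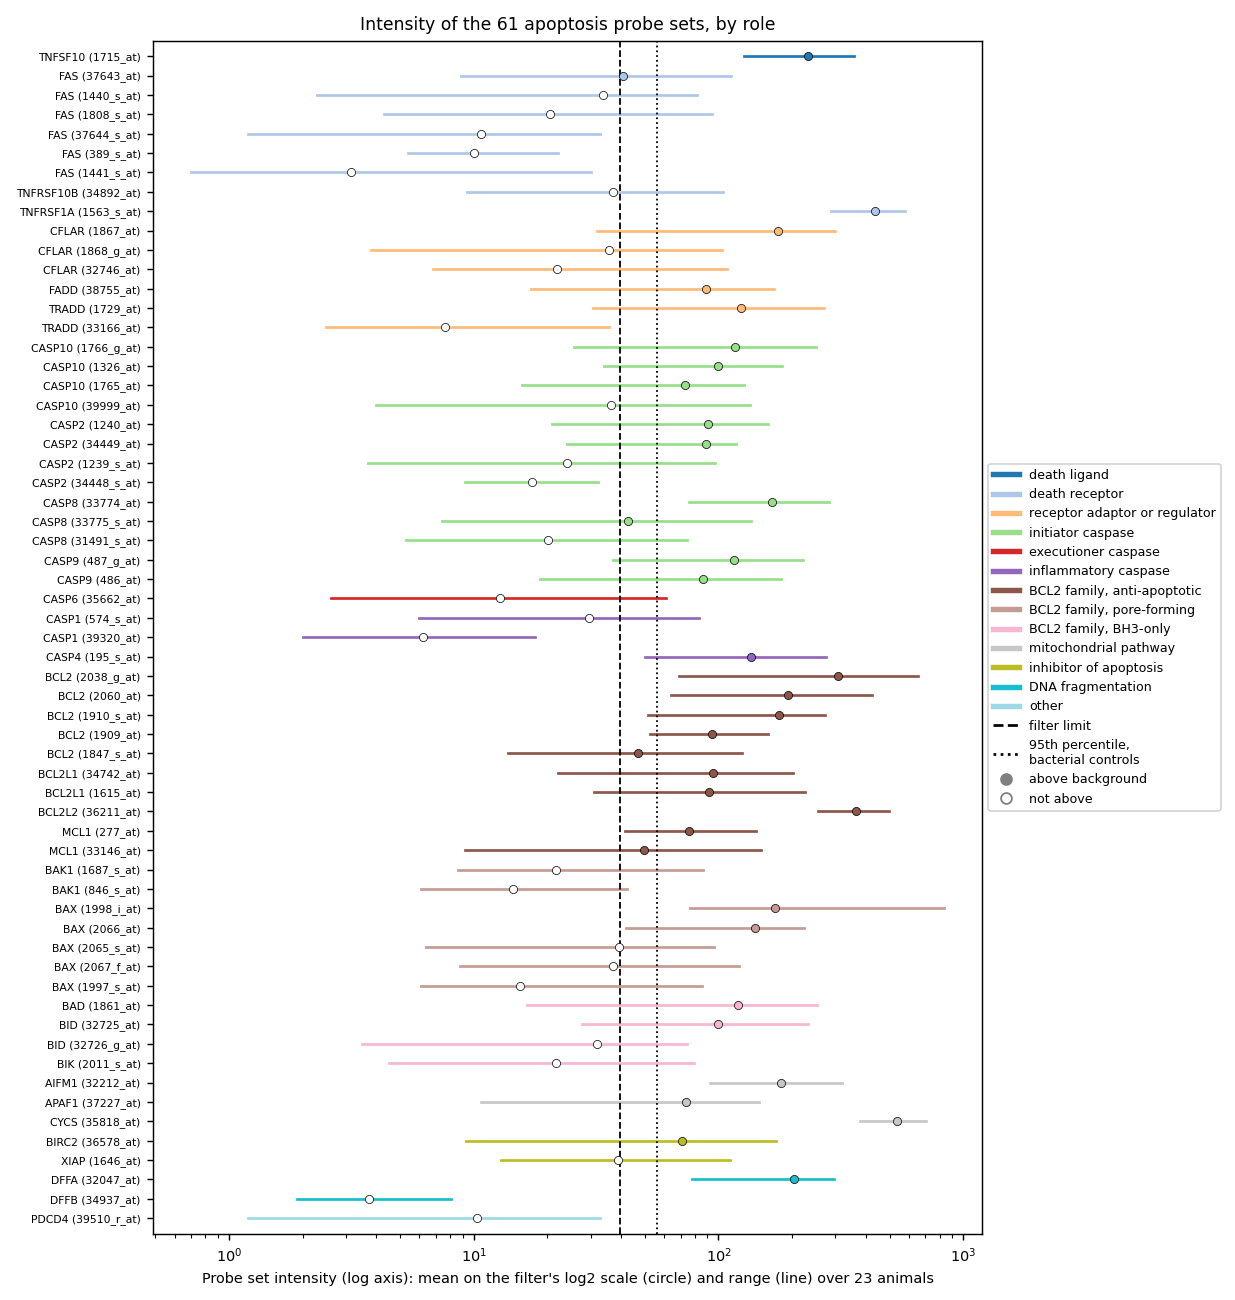
Intensity (log axis) of the 61 probe sets of the apoptosis genes, coloured by role, with the mean on the filter's log2 scale as a circle and the range over 23 animals as a line. Filled circles mark the 35 probe sets at or above the limit of 39.7 (dashed), and the dotted line at 56.1 is the 95th percentile of the bacterial controls.

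Across the comparisons with vehicle, 0 of the 35 probe sets passed limma's test at an adjusted p under 0.05, at any dose or day. At 400 mg/kg/day after 15 days 161 of 7535 probe sets (2.14%) were called, and 5 of the 35 had an unadjusted p under 0.05 (14.3%, beside 12.5% of all probe sets tested). At 150 mg/kg/day 0.677% were called and again 5 of the 35 had an unadjusted p under 0.05, beside 11.3% of all. At 30 mg/kg/day 0.0133% and at 3 mg/kg/day 0% were called, with 4 of the 35 below an unadjusted p of 0.05 at each dose, beside 9.82% and 10% of all. At 4 days 0.292% were called, and 3 of the 35 had an unadjusted p under 0.05, beside 7.63% of all. These shares lie near the background of all probe sets. For a test of any difference among the 15-day groups 3.3% of all probe sets were called and 0 of the 35, of which 5 had an unadjusted p under 0.05, beside 17.1% of all. For the slope of log2 intensity over the 5 dose steps at 15 days 3.11% were called and 0 of the 35, of which 7 had an unadjusted p under 0.05 (beside 13.9% of all).

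The median log2 difference of the 35 at 15 days was 0.01 at 400, -0.03 at 150, 0.16 at 30 and -0.05 at 3 mg/kg/day, beside -0.03, -0.02, 0.00 and -0.02 over all probe sets. At 4 days it was -0.05, as it was over all probe sets. Absence of a call leaves room for sizeable differences: the 95% interval lay within 1 log2 unit, a 2-fold change, for 15 of the 35 at 400 mg/kg/day after 15 days and for 6 at 4 days. The spread between animals of a group was also larger for these genes, with a median residual standard deviation of 0.55 on the log2 scale beside 0.44 over all probe sets tested. It ran from 0.17 for TNFSF10 to 0.94 for BID. The 35 and all probe sets tested were not matched for intensity, with which the fit lets the spread vary.

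The comparison of the 2 high doses (150 and 400 mg/kg/day, 8 animals) with the 2 low doses (3 and 30 mg/kg/day, 8 animals) at 15 days uses no vehicle animal and is the most precise. It gave the only call among the 35: TNFSF10 was lower at the high doses, where 1.74% of all probe sets were called lower and 3.38% were called in all. Of the 35, 4 had an unadjusted p under 0.05 (11.4%, beside 16% of all), the median difference was -0.02 beside -0.01 over all probe sets, and the 95% interval lay within 1 log2 unit for 27. Whether the effect of 400 mg/kg/day differed between 15 and 4 days was tested as an interaction: 0% of all probe sets and 0 of the 35 were called by limma, with 2 of the 35 below an unadjusted p of 0.05, beside 3.37% of all.

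**Figure D2:**
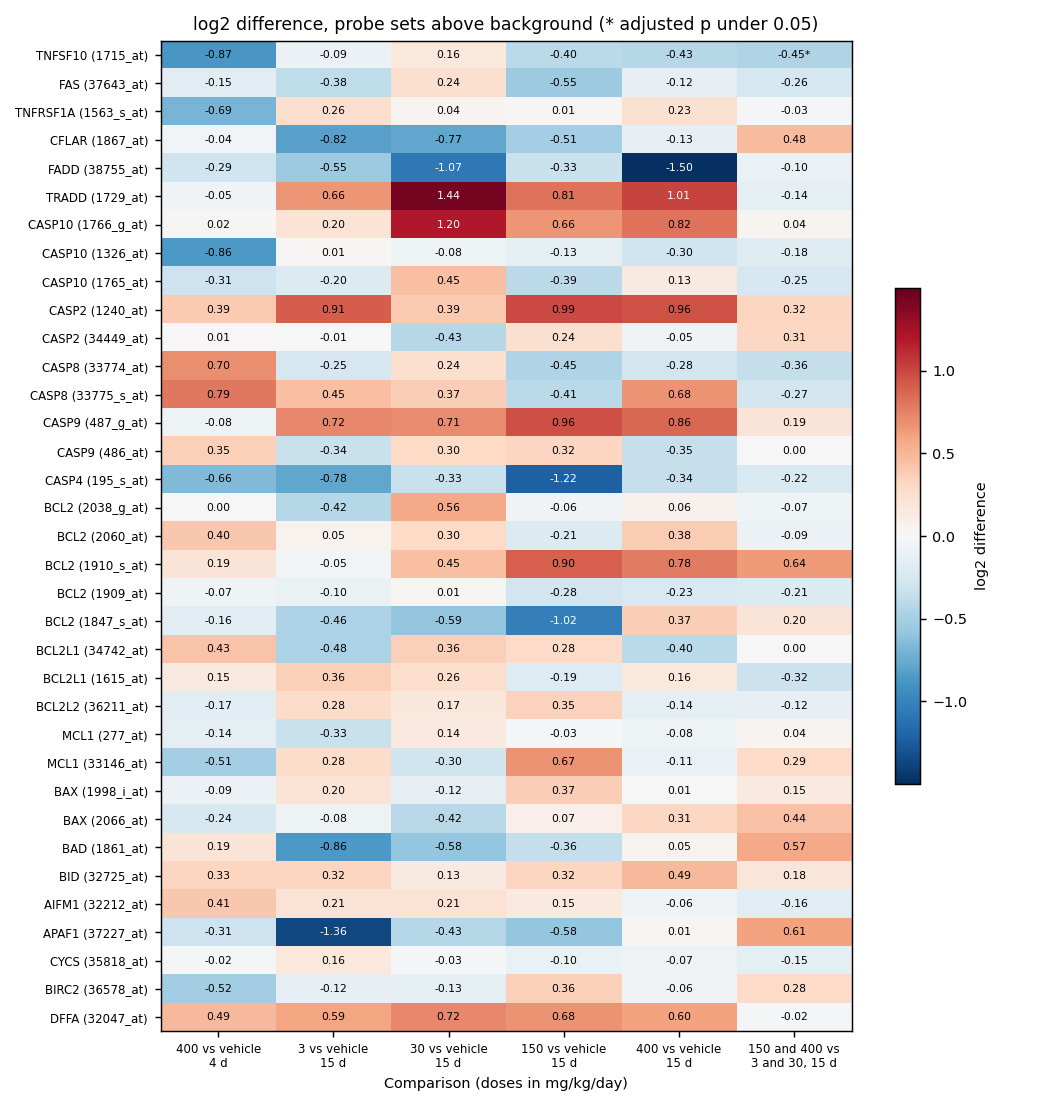
Difference in log2(intensity + 16) for the 35 probe sets above background (rows, ordered by role) in the comparisons of each treated group with vehicle of its day and of the 2 high with the 2 low doses (columns, doses in mg/kg/day). Red is higher and blue lower in the treated or high-dose animals, and the single asterisk marks TNFSF10, at -0.45.

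TNFSF10 is the ligand of the TRAIL death receptors and is made by natural killer cells, macrophages and other cells. After 4 days its probe set (1715_at) read 244.3 and 254.9 in the vehicle animals and 131.7 and 127.5 at 400 mg/kg/day. The 2 treated animals lay at about the same level, well below both vehicle animals. At 15 days it read 236.4, 293 and 301.9 in vehicle, 248.2, 289.2, 297.3 and 209.4 at 3 mg/kg/day, and 326.8, 285.5, 358 and 273.6 at 30 mg/kg/day. It read 216.5, 165.1, 241.3 and 203.3 at 150 mg/kg/day and 197.5, 189.8, 187.9 and 231.1 at 400 mg/kg/day. All 4 animals at 400 lay below all 3 vehicle animals, while at 150 the highest animal overlapped the lowest vehicle animal.

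The mean TNFSF10 intensity was 204 ± 24.8 (SD, n = 8) at the high doses and 286 ± 45.4 (SD, n = 8) at the low doses. The difference was -0.45 ± 0.12 (SE) on the log2 scale, with a 95% interval from -0.70 to -0.20 and an adjusted p of 0.0349 by limma. The groups overlapped, since 1 animal at 3 mg/kg/day (209.4) lay below 3 animals of the high doses. The call was lost without any one of 10 animals, which were 3 mg/kg/day replicates 1, 2 and 3, 30 mg/kg/day replicates 1 and 3, 150 mg/kg/day replicates 2 and 4, and 400 mg/kg/day replicates 1, 2 and 3. The adjusted p was then 0.0516 to 0.0792, with the difference between -0.40 and -0.46. It was also lost with no intensity filter (0.0557), with arrays scaled to the same median (0.0968) and with the days fitted separately (0.0551).

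Against vehicle of the same day TNFSF10 was not called. At 4 days means of 129.6 ± 2.97 at 400 mg/kg/day and 249.6 ± 7.50 in vehicle (SD, n = 2 each) gave a difference of -0.87 ± 0.24 (adjusted p = 0.153). After 15 days it was -0.43 ± 0.18 at 400 (adjusted p = 0.306), -0.40 ± 0.18 at 150 (0.4), 0.16 ± 0.18 at 30 (0.811) and -0.09 ± 0.18 at 3 mg/kg/day (0.911). The slope over dose steps was -0.12 ± 0.04 per step (adjusted p = 0.131). At 400 mg/kg/day it was the only one of the 35 whose animals did not overlap with vehicle at 15 days, where 13.2% of all probe sets did not overlap. The interaction between days was 0.44 ± 0.30 (adjusted p = 0.999).

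Between the high and low doses, markers of Kupffer cells and macrophages, which can make TNFSF10, moved in the same direction. The summed intensity of 14 probe sets for such markers was 3006 to 4159 in the 8 animals at the high doses and 4210 to 6329 in the 8 at the low doses, with no overlap. It was 4553 to 5788 in vehicle at 15 days. At 4 days it was 4436 to 5705 in vehicle and 3377 to 3774 at 400 mg/kg/day. Within groups the sum and TNFSF10 did not always run together. The animal lowest in TNFSF10 at 3 mg/kg/day (209.4) had the highest sum (6329). The animal highest in TNFSF10 at 400 mg/kg/day after 15 days (231.1) had the lowest sum (3006). At 30 mg/kg/day the animal lowest in TNFSF10 (273.6) also had the lowest sum of its group (4210). CD14 carried 57.9% of this sum, 11 of the 14 probe sets were above background, 9 of those 11 were lower at the high doses, and both MSR1 probe sets were below background. Of those 11, only 1 was called between high and low doses, beside 3.38% of all probe sets. This was MARCO, a macrophage scavenger receptor, which fell by 1.34 between low and high doses (adjusted p = 0.0224). Its means were 132.6 ± 63.6 at the low and 45.6 ± 44.7 at the high doses (SD, n = 8 each). CD14 differed by -0.47 and was not called (adjusted p = 0.0558). CD68 and 1 AIF1 probe set were higher at the high doses, by 0.39 and 0.30, and were not called either. Of the hepatocyte markers, CYP3A4 rose by 0.93 and both APOB probe sets fell, by 0.47 and 0.88, in that comparison. Markers of T and natural killer cells summed to 934 to 1371 at the high and 725 to 1225 at the low doses, which overlapped. The part of these cells in the TNFSF10 difference was not tested.

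**Figure D3:**
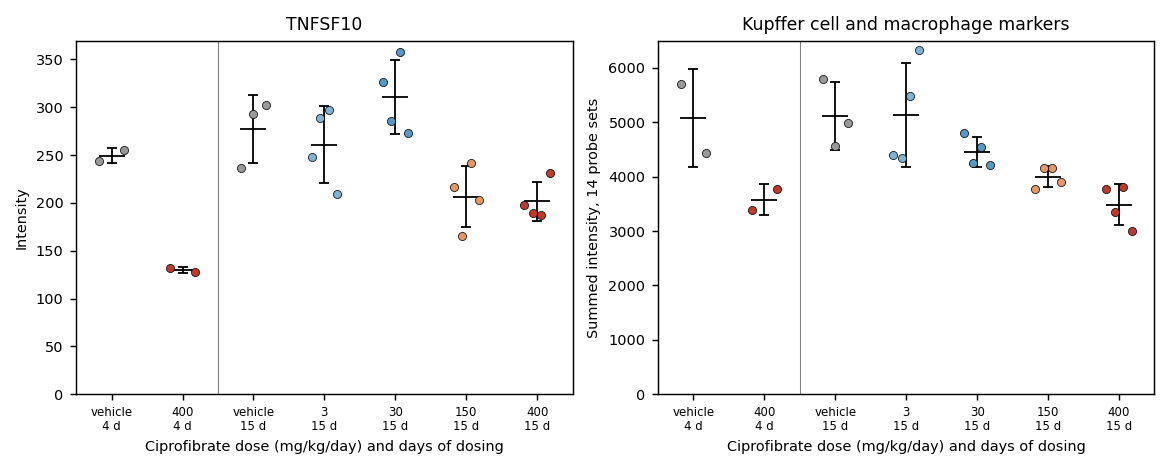
Intensity of TNFSF10 (left) and summed intensity of 14 probe sets for Kupffer cell and macrophage markers (right) in each animal, by dose in mg/kg/day and days of dosing. Points are animals and bars the group mean with its standard deviation (n = 2 to 4); both quantities are lower at 400 mg/kg/day on both days and at 150 mg/kg/day than in most other animals.

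Of the death receptors, TNFRSF1A, the main receptor for TNF, was bright. After 4 days its probe set (1563_s_at) read 413.4 and 576.2 in vehicle and 287.3 and 305.7 at 400 mg/kg/day. At 15 days it read 347.5, 461.3 and 437.3 in vehicle, 556.9, 387.1, 570 and 490.1 at 3, and 342.3, 420, 460.8 and 487.4 at 30 mg/kg/day. It read 348.9, 392.9, 451.8 and 482.8 at 150 and 541, 414.2, 429.9 and 580 at 400 mg/kg/day. The 2 treated animals at 4 days were the lowest of all 23, and no dose at 15 days separated from vehicle.

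The TNFRSF1A difference was -0.69 ± 0.24 at 4 days (adjusted p = 0.364) and 0.23 ± 0.19 at 400 mg/kg/day after 15 days (0.712). Its interaction between days, 0.92 ± 0.31, had the smallest p of the 35 (unadjusted p = 0.00658, adjusted p = 0.999) and was not called. At 4 days, 11 of the 35 probe sets did not overlap between 2 treated and 2 vehicle animals, where 42% of all probe sets did not. FAS, the receptor for FAS ligand, had 6 probe sets, of which 1 passed the filter, and its differences lay between -0.55 and 0.24. TNFRSF10B, below background, read 9.4 to 104.5 across animals.

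Downstream of the receptors, FADD, the adaptor that recruits CASP8 and CASP10, had the largest difference of the 35. After 15 days its probe set (38755_at) read 167.9, 143.1 and 121.8 in vehicle and 31.5, 27.1, 17.1 and 133.3 at 400 mg/kg/day. At 3 it read 146.3, 100.8, 33.2 and 135.2, at 30 it read 59.6, 45.5, 39.9 and 111.7, and at 150 mg/kg/day 102.1, 115.5, 155.1 and 81.3. At 4 days it read 155 and 153.3 in vehicle and 105.8 and 142.2 at 400 mg/kg/day. At 400 mg/kg/day after 15 days 3 animals were under the background limit and the fourth lay within the vehicle range, while at 30 all 4 lay below vehicle.

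The FADD difference at 400 mg/kg/day after 15 days was -1.50 ± 0.44 (SE), from 144.3 ± 23.1 (SD, n = 3) to 52.2 ± 54.4 (SD, n = 4), and was not called (adjusted p = 0.0872). Without 400 mg/kg/day replicate 4, the high animal, it was -1.96 with an adjusted p of 0.00777, and the slope over dose steps, -0.28 ± 0.10 with an adjusted p of 0.143, was -0.37 with 0.0174. Without 3 mg/kg/day replicate 3 the difference at 400 was called (adjusted p = 0.046), as it was with array weights (0.0471) and with the replicate number as a block (-1.68, 0.0338). Over all alternatives its adjusted p ran from 0.00777 to 0.276. The difference was -1.07 ± 0.44 at 30 (adjusted p = 0.442), -0.33 ± 0.44 at 150 (0.841) and -0.29 ± 0.58 at 4 days (0.999), so the values followed no order of dose. The interaction between days was -1.20 ± 0.73 (adjusted p = 0.999).

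TRADD, the adaptor of TNFRSF1A, was lowest in the 15-day vehicle animals. Its brighter probe set (1729_at) read 30.6, 81.4 and 69.6 there, 112, 148.4, 69.5 and 83.3 at 3, and 190.6, 166.3, 221.4 and 153.6 at 30 mg/kg/day. It read 161, 63.6, 134.3 and 109.7 at 150 and 154.3, 50.8, 187.9 and 185.1 at 400 mg/kg/day. After 4 days it read 134.6 and 250.3 in vehicle and 115 and 270.6 at 400 mg/kg/day. Only at 30 mg/kg/day did all treated animals lie above vehicle, and at 4 days the vehicle animals were as high as the treated ones.

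The TRADD difference was 1.44 ± 0.40 at 30 (adjusted p = 0.255), 1.01 ± 0.40 at 400 (0.254), 0.81 ± 0.40 at 150 (0.444) and 0.66 ± 0.40 at 3 mg/kg/day (0.604). All 4 rest on the same 3 vehicle animals, and between high and low doses the difference was -0.14 ± 0.26. Its second probe set was below background. CFLAR, which blocks CASP8 at the receptor, had 1 of 3 probe sets above background, with differences between -0.82 and -0.04 against vehicle.

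Differences between doses and vehicle that did not overlap were few at 15 days. At 30 mg/kg/day they were TRADD, FADD and BAD (8.07% of all probe sets did not overlap), at 150 BCL2 and CASP4 (10.1%), and at 3 CASP4 and APAF1 (8.91%). These counts, 3, 2 and 2 of the 35, are near that background. Between the high and low doses 0 of the 35 separated fully, beside 0.411% of all.

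**Figure D4:**
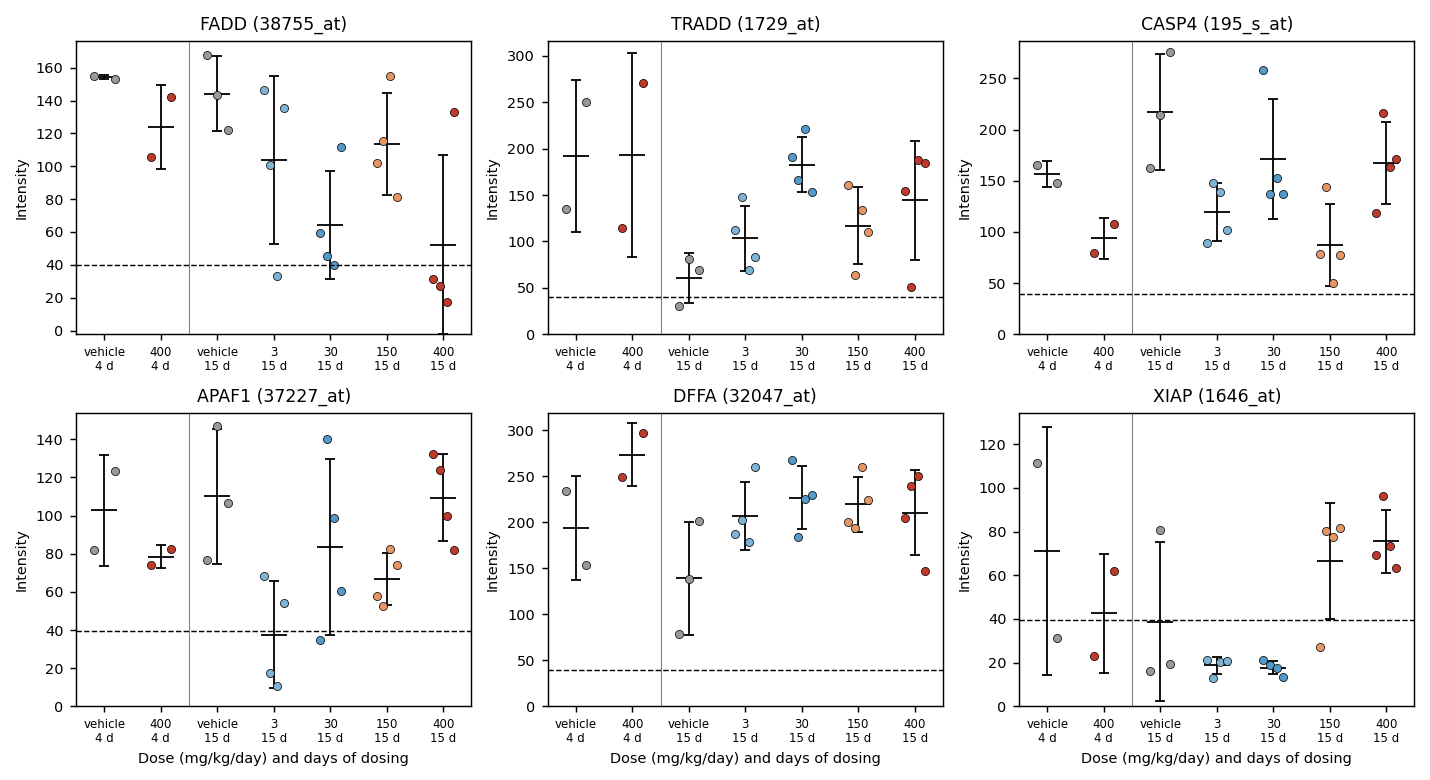
Intensity in each animal for FADD, TRADD, CASP4, APAF1, DFFA and XIAP, by dose in mg/kg/day and days of dosing. Points are animals, bars the group mean with its standard deviation (n = 2 to 4), and the dashed line the background limit of 39.7; 3 of 4 FADD values at 400 mg/kg/day after 15 days lie under that line, and XIAP lies under it in all 8 animals at 3 and 30 mg/kg/day.

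The initiator caspases CASP8, CASP10, CASP9 and CASP2 had 9 probe sets above background, and at 400 mg/kg/day after 15 days 5 were higher and 4 lower than vehicle, between -0.35 and 0.96. CASP9, the caspase of the APAF1 platform, read 147.8, 36.9 and 54.2 in vehicle at 15 days by its probe set 487_g_at. It read 82.4, 179.4, 148.7 and 103 at 3, 109.1, 222.4, 115 and 79.1 at 30, 112.5, 178.9, 167.6 and 145.6 at 150, and 158.7, 117.8, 142.2 and 133.7 at 400 mg/kg/day. At 4 days it read 93.3 and 107.1 in vehicle and 80.6 and 109.4 at 400 mg/kg/day. Vehicle replicate 1 lay within the treated range and the other 2 vehicle animals lay below all treated animals of that day.

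The CASP9 difference was 0.86 ± 0.35 at 400 (adjusted p = 0.277) and 0.96 ± 0.35 at 150 mg/kg/day (0.256). Without vehicle replicate 1 these were 1.33 and 1.44, and the slope over dose steps was then called (0.29, adjusted p = 0.0348). Without vehicle replicate 2, the lowest vehicle animal, they were 0.52 and 0.62. The second CASP9 probe set (486_at) gave -0.35 and 0.32 at the same doses.

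CASP8 is the first caspase activated at death receptors. Its brighter probe set (33774_at) read 115.1 and 118.6 in vehicle and 189.8 and 210.7 at 400 mg/kg/day at 4 days. At 15 days it read 156.7, 203.8 and 214 in vehicle and 161.7, 142.1, 195 and 124.2 at 400 mg/kg/day. It read 232.4, 213.4, 98.1 and 120.9 at 3, 283.8, 216.2, 216 and 203 at 30, and 174.9, 138.5, 176.2 and 76 at 150 mg/kg/day. Both animals at 400 mg/kg/day lay above vehicle at 4 days (0.70 ± 0.37, adjusted p = 0.74), and all 4 at that dose lay among or below vehicle at 15 days (-0.28 ± 0.28, 0.779). At 3 and 30 mg/kg/day some animals lay above all vehicle animals, and the difference was -0.25 and 0.24. The interaction, -0.98 ± 0.46, had an unadjusted p of 0.0466 and an adjusted p of 0.999.

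CASP10, a close relative of CASP8, had 3 probe sets above background that did not move together. By 1766_g_at the 15-day vehicle animals read 36.1, 167.3 and 45.4, those at 3 read 100.5, 182.4, 25.6 and 73.7, and those at 30 mg/kg/day 124.5, 165.8, 182.6 and 250.7. By the same probe set those at 150 read 154, 109.3, 127.4 and 84.7 and those at 400 read 111.1, 162.5, 111.5 and 147.1, while at 4 days vehicle read 131.1 and 155.9 and 400 read 148.1 and 142.7. The spread among the 3 vehicle animals covered most of the treated values, and the difference at 30 mg/kg/day was 1.20 ± 0.42 (adjusted p = 0.394).

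By 1326_at CASP10 read 105 and 128.5 in vehicle and 90.2 and 34.1 at 400 mg/kg/day at 4 days, a difference of -0.86 ± 0.38 (adjusted p = 0.591). After 15 days it read 119.1, 101.4 and 118.3 in vehicle, 107.2, 180.9, 101.7 and 84 at 3, and 104.5, 106.1, 77.5 and 143.6 at 30 mg/kg/day. It read 108.4, 75.7, 114.9 and 110.7 at 150 and 91.9, 104.8, 87 and 72.8 at 400 mg/kg/day. The value at 4 days rests on 1 low animal: without it the difference was -0.32, and without the other treated animal -1.40. CFLAR, CASP10 and CASP8 lie next to each other in this order in the monkey RefSeq gene table, and their differences at 400 mg/kg/day after 15 days were -0.13 for CFLAR, 0.82, -0.30 and 0.13 for CASP10, and -0.28 and 0.68 for CASP8.

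CASP4 senses bacterial lipopolysaccharide inside cells and belongs to the inflammatory caspases. At 15 days its probe set (195_s_at) read 162.1, 213.9 and 275.4 in vehicle and 78.4, 144.1, 49.9 and 77.3 at 150 mg/kg/day. It read 89.4, 147.9, 139.1 and 101.4 at 3, 258, 136.7, 152.3 and 137.5 at 30, and 118.7, 216.4, 163.9 and 171.3 at 400 mg/kg/day. After 4 days it read 165.2 and 147.3 in vehicle and 79.5 and 107.9 at 400 mg/kg/day. All animals at 3 and at 150 mg/kg/day lay below vehicle, while those at 30 and 400 overlapped it.

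The CASP4 difference at 150 mg/kg/day was -1.22 ± 0.30, between means of 87.4 there and 217.1 in vehicle, and was not called (adjusted p = 0.0608). It was called without 150 mg/kg/day replicate 2, the highest animal of that group (-1.45, 0.0313), with array weights (0.0408) and with the filter at the 60th percentile (0.0427), and its adjusted p ran from 0.0313 to 0.197 over all alternatives. It was -0.78 ± 0.30 at 3 (0.384), -0.33 ± 0.30 at 30 (0.758), -0.34 ± 0.30 at 400 (0.736) and -0.66 ± 0.39 at 4 days (0.807). For any difference among the 15-day groups CASP4 had the smallest adjusted p of the 35, 0.0788, or 0.0288 without 150 mg/kg/day replicate 2. Both CASP1 probe sets and the single CASP6 probe set were below background; CASP6 read 2.6 to 60.8.

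The anti-apoptotic proteins BCL2, BCL2L1 (BCL-XL), BCL2L2 (BCL-w) and MCL1 hold the pore formers in check. Their 10 probe sets at 400 mg/kg/day after 15 days were higher than vehicle in 5 cases and lower in 5, between -0.40 and 0.78. BCL2L2 was the steadiest, at 254.6 to 497.5 across the 23 animals, with differences between -0.17 and 0.35. BCL2 had 5 probe sets above background. One of them (1910_s_at) read 51.4, 175.5 and 191.2 in vehicle at 15 days, 199, 60.3, 271.7 and 53.4 at 3, and 258.8, 188.1, 174.3 and 105.6 at 30 mg/kg/day. It read 230.7, 258.6, 248.7 and 235.2 at 150 and 228.7, 179, 219.1 and 271 at 400 mg/kg/day, and at 4 days 141.2 and 242.5 in vehicle and 198.2 and 231.6 at 400. The 8 animals at the high doses lay close together at or above 179, whereas low-dose and vehicle animals were spread from 51.4 to 271.7.

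By 1910_s_at the difference in BCL2 between high and low doses was 0.64 ± 0.28 (adjusted p = 0.25), and against vehicle it was 0.90 ± 0.42 at 150 (0.43) and 0.78 ± 0.42 at 400 mg/kg/day (0.484). The slope was 0.25 ± 0.09 per dose step (adjusted p = 0.178). The other 4 BCL2 probe sets differed between high and low doses by -0.07, -0.09, -0.21 and 0.20. MCL1, which is short-lived and needed by hepatocytes, differed by -0.08 and -0.11 at 400 mg/kg/day after 15 days by its 2 probe sets.

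BAX, a pore former, differed between the days of dosing by 1 of its probe sets, which was noticed after the values were seen and is given as a description. By 1998_i_at it read 836.9 and 759.6 in vehicle and 733.8 and 766.5 at 400 mg/kg/day at 4 days. After 15 days it read 91.4, 186.4 and 82.1 in vehicle, 126.4, 109.3, 119.4 and 183.2 at 3, and 106.4, 88.9, 76.2 and 151 at 30 mg/kg/day. It read 169.4, 96.9, 188.2 and 164 at 150 and 78.3, 187.3, 141 and 77.4 at 400 mg/kg/day. All 4 arrays at 4 days lay far above all 19 at 15 days, whether or not the drug was given, by 2.52 on the log2 scale.

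Of all probe sets tested, 1.57% did not overlap between 4-day and 15-day arrays, 0.677% were higher on every 4-day array, and 2 of 7535 (0.0265%) were higher by over 2 on the log2 scale. The other BAX probe set above background (2066_at) read 64.2 to 223.3 at 4 days and 41.7 to 217.8 at 15 days, which overlapped. The 2 BAX probe sets showed no relation across the 23 arrays once group means were removed (Pearson r = 0.00). BCL2L1 was the only other gene of the 35 probe sets whose days did not overlap: by 1615_at it read 174.7 to 225.2 at 4 days and 31.1 to 167.3 at 15 days. The other BCL2L1 probe set above background (34742_at) overlapped, at 30.1 to 177.3 and 22 to 201.6. Day of dosing cannot be told apart here from anything else in which the 4-day and 15-day arrays differed, and the part of RNA quality, given above by the ACTB ratio, was not tested.

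**Figure D5:**
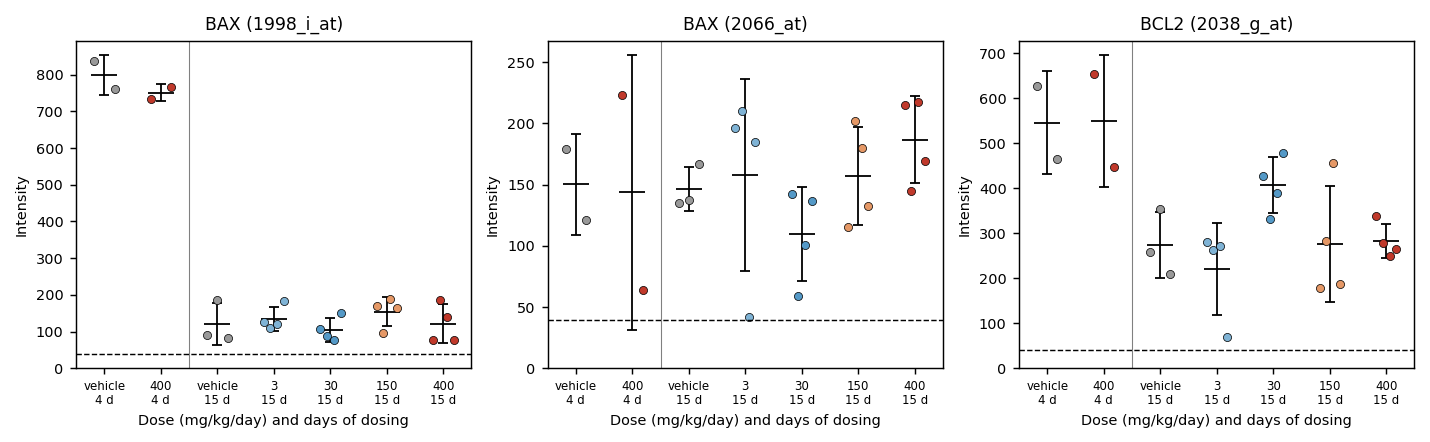
Intensity in each animal for 2 BAX probe sets (1998_i_at and 2066_at) and 1 BCL2 probe set (2038_g_at), by dose in mg/kg/day and days of dosing. Points are animals, bars the group mean with its standard deviation (n = 2 to 4), and the dashed line the background limit of 39.7; by 1998_i_at the 4 animals at 4 days lie between 733.8 and 836.9 and the 19 at 15 days between 76.2 and 188.2.

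Between treated and vehicle animals BAX differed little: by 1998_i_at the difference was 0.01 at 400 mg/kg/day after 15 days and -0.09 at 4 days, and by 2066_at it was 0.31 and -0.24. Neither probe set was called at any dose. Of the BH3-only genes, which sense damage and trigger the pore formers, BAD and BID each had 1 probe set above background. BAD read 252, 133.9 and 150.9 in vehicle at 15 days and 123.7, 96.3, 129.7 and 93.9 at 30 mg/kg/day, where all treated animals were lower (-0.58, not called). Its difference was -0.86 at 3, -0.36 at 150 and 0.05 at 400 mg/kg/day, also not called. The 4 animals at 3 mg/kg/day read 144.2, 107.7, 164.4 and 16.5. BID, cleaved by CASP8 to link receptor and mitochondrion, was the most variable of the 35 and read 27.7 to 232.6.

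APAF1, the core of the caspase-activating platform, was lowest at the lowest dose. Its probe set (37227_at) read 76.5, 147 and 106.6 in vehicle at 15 days and 68.5, 17.4, 10.7 and 54 at 3 mg/kg/day. It read 34.6, 140, 98.7 and 60.6 at 30, 57.8, 52.7, 82.5 and 74 at 150, and 132.1, 123.8, 99.7 and 82 at 400 mg/kg/day. At 4 days it read 82.1 and 123.3 in vehicle and 74.1 and 82.7 at 400 mg/kg/day. The 4 animals at 3 mg/kg/day lay below vehicle, 2 of them under the background limit, and those at 400 lay among the vehicle values.

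The APAF1 difference was -1.36 ± 0.40 at 3 (adjusted p = 0.229), -0.43 at 30, -0.58 at 150 and 0.01 at 400 mg/kg/day. Between high and low doses it was 0.61 ± 0.26 (adjusted p = 0.237), and for any difference among the 15-day groups its adjusted p was 0.125. CYCS, cytochrome c itself, read 378.4 to 703.5 across the 23 animals, and its differences lay between -0.15 and 0.16. AIFM1, a mitochondrial flavoprotein that can move to the nucleus, differed by -0.06 at 400 mg/kg/day after 15 days and by 0.41 at 4 days.

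Of the inhibitors of apoptosis, XIAP binds and blocks caspases directly, and its probe set (1646_at) lay just under the background limit and so outside the main test. It was singled out after its values were seen. At 15 days it read 21, 12.9, 20.3 and 20.7 at 3 and 21, 18.7, 17.7 and 13.5 at 30 mg/kg/day. It read 27.1, 80.1, 77.5 and 81.6 at 150 and 69.4, 96.1, 73.5 and 63.2 at 400 mg/kg/day. All 8 high-dose animals lay above all 8 low-dose animals, a separation that 0.135% of the 12558 probe sets showed in that direction without a filter. The vehicle animals read 16.4, 80.6 and 19.3, so 1 lay with the high and 2 with the low doses. At 4 days vehicle read 111.5 and 31.2 and 400 mg/kg/day read 23.2 and 61.9, so the groups overlapped in part.

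In a fit of all 12558 probe sets the XIAP difference between high and low doses was 1.31 ± 0.27 (SE), with a 95% interval from 0.75 to 1.87 and an adjusted p of 0.00938 by limma, where 0.852% of probe sets were called higher. It was called in all 23 fits without the filter that left out 1 animal (1.26 to 1.45, adjusted p from 0.00457 to 0.0257). Leaving out a 4-day or vehicle animal could not change the difference, which stayed at 1.31. Only the fits without a high-dose or low-dose animal bear on its size. The low-dose values are at the level of background, so the size depends on the pseudocount: it was 1.85 with a pseudocount of 1 and 0.70 with 64, and was called with each. Against vehicle it was not called at any dose: 0.92 ± 0.41 at 400 (adjusted p = 0.457), 0.71 ± 0.41 at 150 (0.656), -0.51 ± 0.41 at 30 (0.79) and -0.47 ± 0.41 at 3 mg/kg/day (0.809). After 4 days it was -0.49 ± 0.54. No other of the 26 probe sets below the limit was called in any comparison of that fit, and 1 probe set represents XIAP, so no second measure of it was at hand. BIRC2, which ubiquitinates RIPK1 at the TNF receptor, read 9.3 to 171.7 and differed by -0.06 at 400 mg/kg/day after 15 days.

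DFFA, the inhibitor that caspases cut to free the nuclease DFFB, was higher than the vehicle mean at each dose. Its probe set (32047_at) read 78.2, 137.9 and 201.1 in vehicle at 15 days, 186.9, 203.1, 178.6 and 260.5 at 3, and 267.8, 184.1, 225 and 230 at 30 mg/kg/day. It read 200, 193.6, 260.1 and 224.5 at 150 and 204.6, 239.2, 250.5 and 147.4 at 400 mg/kg/day. At 4 days it read 233.7 and 153.5 in vehicle and 249.2 and 297.6 at 400 mg/kg/day. The 3 vehicle animals at 15 days were spread widely, and the highest of them lay within the treated range at every dose.

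The DFFA difference was 0.59 ± 0.25 at 3 (adjusted p = 0.44), 0.72 ± 0.25 at 30 (0.394), 0.68 ± 0.25 at 150 (0.28) and 0.60 ± 0.25 at 400 mg/kg/day (0.295). Without vehicle replicate 1, the lowest animal, these were 0.27 at 3, 0.40 at 30 and 0.36 at 150. Without vehicle replicate 3, the highest vehicle animal, they were 0.88 at 3, 1.00 at 30 and 0.96 at 150. Between high and low doses it was -0.02 ± 0.17, and at 4 days 0.49 ± 0.33 (0.885). DFFB was near the floor of the array at 1.9 to 8.1, and the probe set that names PDCD4 with another gene read 1.2 to 32.9.

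Where a gene had several probe sets above background they were rarely in step. Over the 19 such pairs in 8 genes, the Pearson correlation of deviations from group means across 23 arrays ran from -0.40 for CASP2 to 0.50 for 2 BCL2 probe sets, with a median of 0.10. Probe sets of a pair share arrays and animals, and some share transcript sequence. In 9 of the 19 pairs both differences at 400 mg/kg/day after 15 days had the same sign. For CASP2, for example, 1240_at gave 0.96 and 34449_at gave -0.05. Each value in the text therefore belongs to the probe set named with it.

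Among 81 other apoptosis genes, 42 were measured above background on 52 probe sets. At 400 mg/kg/day after 15 days 0 of the 52 were called by limma (2.14% of all were) and 6 had an unadjusted p under 0.05 (12.5% of all did), with a median difference of 0.00 beside -0.03 over all. Between high and low doses 1 rose and 0 fell, where 3.38% of all were called: PHLDA2, an imprinted gene of the PHLDA family, rose by 1.02 ± 0.26 (adjusted p = 0.0252), with means of 152.7 ± 88.4 at the low and 299.8 ± 91.7 at the high doses (SD, n = 8 each). VDAC1, the channel of the outer mitochondrial membrane, was called for any difference among the 15-day groups (adjusted p = 0.0317), the only 1 of the 52 where 3.3% of all were called.

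Of 19 genes of NF-kB signalling, which opposes death at the TNF receptor, 13 were measured on 20 probe sets. At 400 mg/kg/day after 15 days 1 rose and 0 fell, beside 2.14% of all called: CHUK (IKK-alpha), a kinase of the pathway, read 518.1 ± 32.8 (SD, n = 3) in vehicle and 901.6 ± 174 (SD, n = 4) at that dose, a rise of 0.76 ± 0.19 (adjusted p = 0.0311). CHUK also rose with dose (0.19 per step, adjusted p = 0.00977) and between low and high doses (0.57 ± 0.12, 0.00866). The median of the 20 probe sets at 400 mg/kg/day was -0.24 beside -0.03 over all.

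Of 26 genes of the p53 response, which include the members FAS, BAX and TNFRSF10B, 14 were measured on 18 probe sets. At 400 mg/kg/day after 15 days 0 were called by limma, beside 2.14% of all, with 2 of the 18 below an unadjusted p of 0.05, beside 12.5% of all. Between high and low doses 1 rose and 0 fell, beside 3.38% of all called: EI24, an endoplasmic reticulum protein induced by p53, rose by 0.64 ± 0.15 (adjusted p = 0.0189), with means of 3244 ± 757 at the low and 5126 ± 1443 at the high doses (SD, n = 8 each).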

How the data were processed

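Liver RNA of 23 monkeys was measured on 1 array each. Per the submitters' processing notes, MAS5 turned each array's scan into 1 intensity per probe set, and these intensities, linear and unlogged, are what the authors deposited. Its version and settings are not given in the sources used here. Arrays shared a trimmed mean (2% removed at each end) of 150.065 to 150.08, so no scaling was added. No present or absent calls were used. Of 12625 probe sets 10961 named 1 gene, 545 several and 1119 none in the platform annotation; 67 control probe sets were left out.

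Values were converted to log2(intensity + 16), so differences of dim probe sets are understated. The 7535 probe sets at or above the 40th percentile of mean log2 were tested. A means model of the 7 groups was fitted to all arrays with limma 3.58.1 in R 4.3.3, with an intensity trend and 16 residual degrees of freedom. Tests were two-sided, adjusted by Benjamini-Hochberg over all 7535, and called at an adjusted p under 0.05. Residual spread is that of animals within a group; the number of arrays limits the precision. The fit was also run on simulated data with normal noise, independent between animals, and no result here rests on that run.

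Members, gene lists and tests were chosen with earlier results of these data known. Per-animal values were given for every member probe set called and for the 3 with the smallest p in each comparison; BAX, BAD and XIAP values were added after they were seen. From the other lists, called genes were named. The labels' replicate numbers name different animals within each group, and the same number gave a median correlation of -0.01 between deviations from group means over 58 pairs of arrays, so they were not used as pairs. Alternatives covered the pseudocount, filter, scaling, trend, robust option, array weights, replicate block, separate fits, dose scores and each animal left out.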

Additional observations from a re-analysis of the deposited data

Results flagged for a closer look

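Among 60 groups of 4 animals for 15 probe sets given by animal, 3 of them added after their values were seen, 5 held an animal far from the rest of its group; chance gives about 1 in 20, or 3 of 60. CASP10 (1326_at) read 75.7 in 150 mg/kg/day replicate 2, below 108.4 to 114.9 in the others. TRADD (1729_at) read 50.8 in 400 mg/kg/day replicate 2, below 154.3 to 187.9 in the others, and without that animal the TRADD difference from vehicle was 1.39. CASP4 (195_s_at) read 258 in 30 mg/kg/day replicate 1, above 136.7 to 152.3 in the others. XIAP (1646_at) read 27.1 in 150 mg/kg/day replicate 1, below 77.5 to 81.6 in the others, and without that animal the difference between high and low doses was 1.45. It read 12.9 in 3 mg/kg/day replicate 2, below 20.3 to 21 in the others, all of them under the background limit.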

How the results depend on the processing

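For each of 27 results for genes named in the text there were 11 to 14 other settings and 23 omissions of an animal, which gave 945 values. Of these, 922 kept their direction and side of the threshold, 0 reversed, 10 became called and 13 lost their call. The 27 include tests of any difference among the 15-day groups, which have no direction and could only change side. Many omissions were of an animal that the comparison does not use. Those could not move the difference, only its p, so the 945 values are not independent checks. The count of called apoptosis probe sets became 1 at 400 mg/kg/day after 15 days with array weights or a replicate block, 1 at 150 mg/kg/day with the 60th percentile filter or array weights, and 1 at 4 days with array weights (TNFSF10, adjusted p = 0.0223). Between high and low doses it became 2 with the 20th percentile filter, which adds XIAP, and 0 with median scaling or separate fits. With no filter it stayed at 1, but the gene called was XIAP. Leaving out 1 animal gave 0 to 1 at 400, 0 to 1 at 150, 0 to 1 for the slope, 0 to 2 between high and low doses and 0 to 1 for any difference at 15 days. The replicate block changed no other call among these genes; by number, 5 of 23 arrays correlated best with an array of their own number. Counts of all probe sets called ran from 93 to 252 around 161 at 400 mg/kg/day after 15 days, 13 to 75 around 51 at 150, 0 to 5 around 1 at 30, 0 to 4 around 0 at 3, 1 to 113 around 22 at 4 days and 151 to 310 around 249 for any difference. The number of apoptosis probe sets above background was 50 at the 20th and 27 at the 60th percentile. Scaling moved the median of all probe sets by less than 0.1 in every comparison. Groups of 2 to 4 animals, dim signals and human probes limit what could be called.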
